A study of Homo sapiens with 3 samples.

Results

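Keratin genes were read in 3 lines of C4-2B, a human castration-resistant prostate cancer cell line of the LNCaP family. The 9 genes were KRT8, KRT18, KRT19, KRT7, KRT80, KRT5, KRT14, KRT15 and KRT13, and they were read by every probe set that the HG-U133 Plus 2.0 array annotation assigns to one of these symbols. This gave 13 probe sets of the 41097 annotated to a single gene, and 9 genes of 19775. No probe set was annotated to one of these keratins jointly with another gene. The C4-2B parental line grew without either drug and was passaged alongside the resistant lines. C4-2B MDVR cells are an enzalutamide-resistant subline grown with 20 µM enzalutamide, which blocks the androgen receptor. C4-2B AbiR cells are an abiraterone-resistant subline grown with 10 µM abiraterone acetate, which inhibits androgen synthesis. Each line was hybridized to 1 array, and each resistant line is 1 subline grown in drug, so that the drug, the selection of the subline and the array cannot be told apart.

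Keratins are the intermediate filament proteins of epithelial cells. A filament is built from pairs of 1 type I and 1 type II keratin, and different epithelia use different pairs. In the prostate gland, luminal secretory cells carry the pair of KRT8 (type II) and KRT18 (type I), and basal cells carry KRT5 (type II) with KRT14 or KRT15 (type I). KRT19 is a type I keratin of simple epithelia and of cells with features between basal and luminal. KRT7 is a type II keratin of simple and ductal epithelia, KRT13 a type I keratin of stratified mucosa and urothelium, and KRT80 a type II keratin found in both simple and stratified epithelia. Filaments are anchored at desmosomes and hemidesmosomes through plakin and plakophilin proteins.

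All values below are log2 RMA values that the authors centred for each probe set. RMA is a method that removes background signal, brings arrays to a common scale and combines the several probes that form a probe set. A centred value gives the position of an array relative to the other arrays for that probe set and gives no expression level. For this reason the luminal or basal state of the lines could not be checked against the markers, levels of different keratins could not be compared, and a keratin near background looks the same as an abundant one with equal signal on the arrays. Differences between 2 arrays are given as log2 differences, and values after ± are SDs over the probe sets that read a gene. These SDs measure how far the probe sets of a gene differ and hold no spread between samples. There was no replicate array, so that no difference was tested. As a technical scale, 45 probe sets of bacterial control transcripts varied between the MDVR and parental arrays with an SD of 0.13 and a largest absolute difference of 0.35. The SD was 0.10 and the largest difference 0.20 between AbiR and parental, and 0.12 and 0.34 between the MDVR and AbiR arrays.

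KRT19 had the largest difference among the 9 keratins in both resistant lines, and it was lower in both. Probe set 201650_at had centred values of 1.04 in parental, 0.42 in MDVR and −0.42 in AbiR. Probe set 228491_at had values of 0.40, 0.038 and −0.038 in the same order. Both probe sets therefore ranked the arrays alike, with parental highest, MDVR between and AbiR lowest. Relative to parental, 201650_at was 1.54-fold lower in MDVR (log2 difference −0.62) and 2.76-fold lower in AbiR (−1.47). The difference of 228491_at was smaller, at 1.28-fold lower in MDVR (−0.36) and 1.35-fold lower in AbiR (−0.43). As the mean of both probe sets, KRT19 was 1.41-fold lower in MDVR (−0.49 ± 0.19) and 1.93-fold lower in AbiR (−0.95 ± 0.73). A lower difference than that of KRT19 was found for 6.84% of all genes in MDVR and for 0.850% in AbiR. Between the resistant lines KRT19 was 1.37-fold higher in MDVR than in AbiR (0.46 ± 0.54), and the probe sets gave 0.84 and 0.076. The order of the resistant lines rests on 201650_at, since 0.076 lies within the SD of the bacterial controls. In RNA from a whole culture, fewer cells with KRT19 and less KRT19 RNA per cell cannot be told apart.

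**Figure D1:**
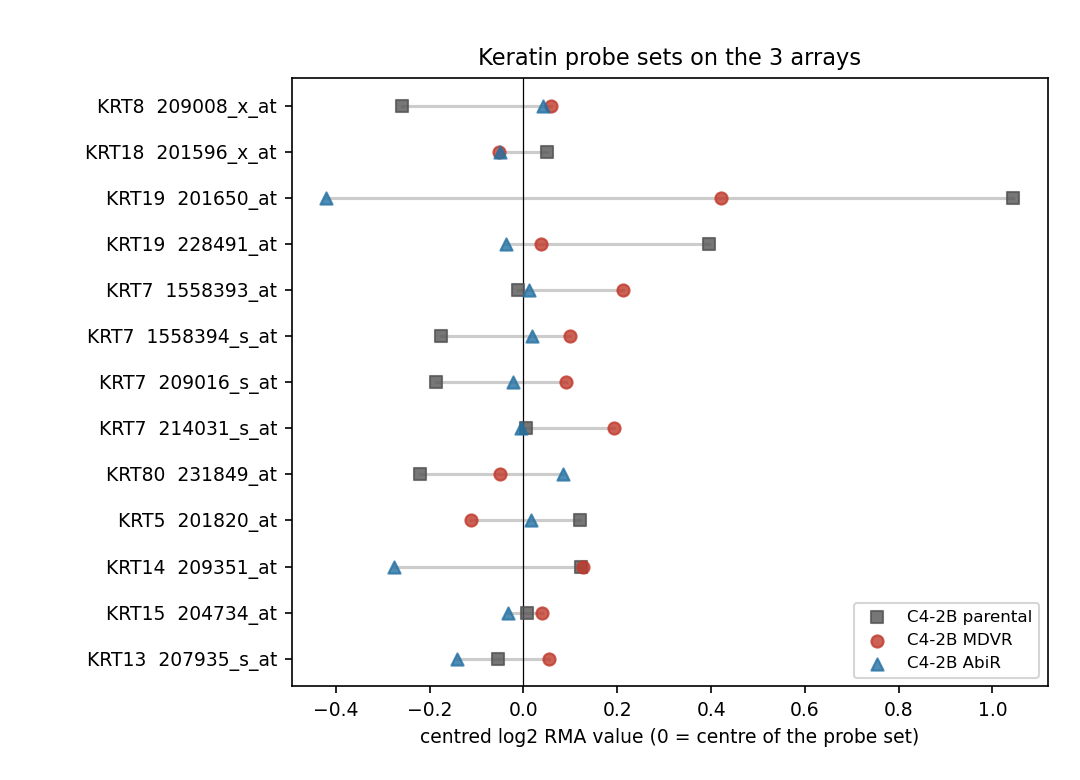
Centred log2 RMA values (x axis) of the 13 keratin probe sets (y axis) on the C4-2B parental (grey squares), MDVR (red circles) and AbiR (blue triangles) arrays, 1 array per line, with a grey line joining the lowest and highest array. The widest row is KRT19 201650_at, from −0.42 in AbiR to 1.04 in parental, and both KRT19 rows have parental at the right end.

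The luminal pair KRT8 and KRT18 had small differences of opposite sign. KRT8, read by the single probe set 209008_x_at, had centred values of −0.26 in parental, 0.058 in MDVR and 0.041 in AbiR. It was 1.25-fold higher in MDVR (0.32) and 1.23-fold higher in AbiR (0.30) than in parental, and the resistant arrays lay within 0.017 of each other. The AbiR difference of KRT8 exceeded the largest bacterial control difference of its comparison, and the MDVR difference did not. KRT18, read by 201596_x_at, had values of 0.050, −0.053 and −0.050. It was 1.07-fold lower in both resistant lines, at −0.10 in each, which is no larger than the SD of the bacterial controls. The suffix _x marks probe sets with probes that can match other transcripts. KRT8 and KRT18 have many processed pseudogenes, and both values are uncertain for this reason. No other kind of probe set read either gene.

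The simple-epithelial keratin KRT7 was read by 4 probe sets, all with a higher value in MDVR than in parental. Their differences were 0.22 for 1558393_at, 0.27 for 1558394_s_at, 0.28 for 209016_s_at and 0.19 for 214031_s_at. The mean was 0.24 ± 0.043, a 1.18-fold difference. In AbiR the same probe sets gave 0.024, 0.19, 0.17 and −0.0098, with a mean of 0.093 ± 0.10, so that 3 of the 4 were above parental. All 4 were higher in MDVR than in AbiR, by 0.15 ± 0.060. Each of the KRT7 means lay inside the largest difference of the bacterial controls. KRT80, with the single probe set 231849_at, had centred values of −0.22 in parental, −0.051 in MDVR and 0.085 in AbiR. It was 1.13-fold higher in MDVR (0.17) and 1.24-fold higher in AbiR (0.31) than in parental.

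Against parental, the basal keratins and KRT13 had small values of both signs in MDVR and values below 0 in AbiR. KRT5 (201820_at) had centred values of 0.12 in parental, −0.11 in MDVR and 0.017 in AbiR, and was 1.18-fold lower in MDVR (−0.23) and 1.07-fold lower in AbiR (−0.10). KRT14 (209351_at), the type I partner of KRT5, had values of 0.12, 0.13 and −0.28. Parental and MDVR were within 0.0061 of each other and AbiR was apart, 1.32-fold lower than parental (−0.40) and 1.32-fold below MDVR. A lower AbiR difference than that of KRT14 was found for 5.50% of genes. KRT15 (204734_at) had values of 0.0078, 0.040 and −0.032, which gave differences of 0.032 in MDVR and −0.040 in AbiR. KRT13 (207935_s_at), the mucosal keratin, had values of −0.055, 0.055 and −0.14, with differences of 0.11 and −0.086. The KRT15 and KRT13 differences from parental all lay within the SD of the bacterial controls.

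As a group, the 9 keratins differed about as much as other genes did. None of the 9 was at least 2-fold higher or lower in MDVR, where 1.65% of all genes were higher and 1.67% lower. None was in AbiR either, where the shares were 1.07% and 0.804%, nor between MDVR and AbiR, where 0.875% of genes were higher in MDVR and 1.13% lower. With counting by probe set, 201650_at of KRT19 was the single one of the 13 at least 2-fold lower in AbiR, as were 1.12% of all probe sets annotated to 1 gene. At 1.5-fold, KRT19 in AbiR was the single keratin counted. At this threshold 3.32% of genes were higher and 2.52% lower in AbiR, 4.81% and 5.15% in MDVR, and 2.77% and 3.96% for MDVR minus AbiR. Differences beyond the largest bacterial control difference were found for 1 keratin in MDVR (KRT19), with 23% of all genes, and for 4 in AbiR (KRT19, KRT14, KRT8 and KRT80), with 33%. For MDVR minus AbiR they were found for 2 (KRT19 and KRT14), with 19.4%. When arrays were centred on the hybridization controls, the AbiR difference of KRT19 passed 2-fold, at −1.04.

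The median difference of the 9 keratins was 0.032 in MDVR, beside 0.044 for all genes, and −0.086 in AbiR, beside −0.011. The median absolute difference was 0.17 for the keratins and 0.17 for all genes in MDVR, and 0.10 against 0.13 in AbiR. Without KRT19, the other 8 keratins ranged from −0.23 to 0.32 in MDVR and from −0.40 to 0.31 in AbiR. Both comparisons use the same parental array.

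**Figure D2:**
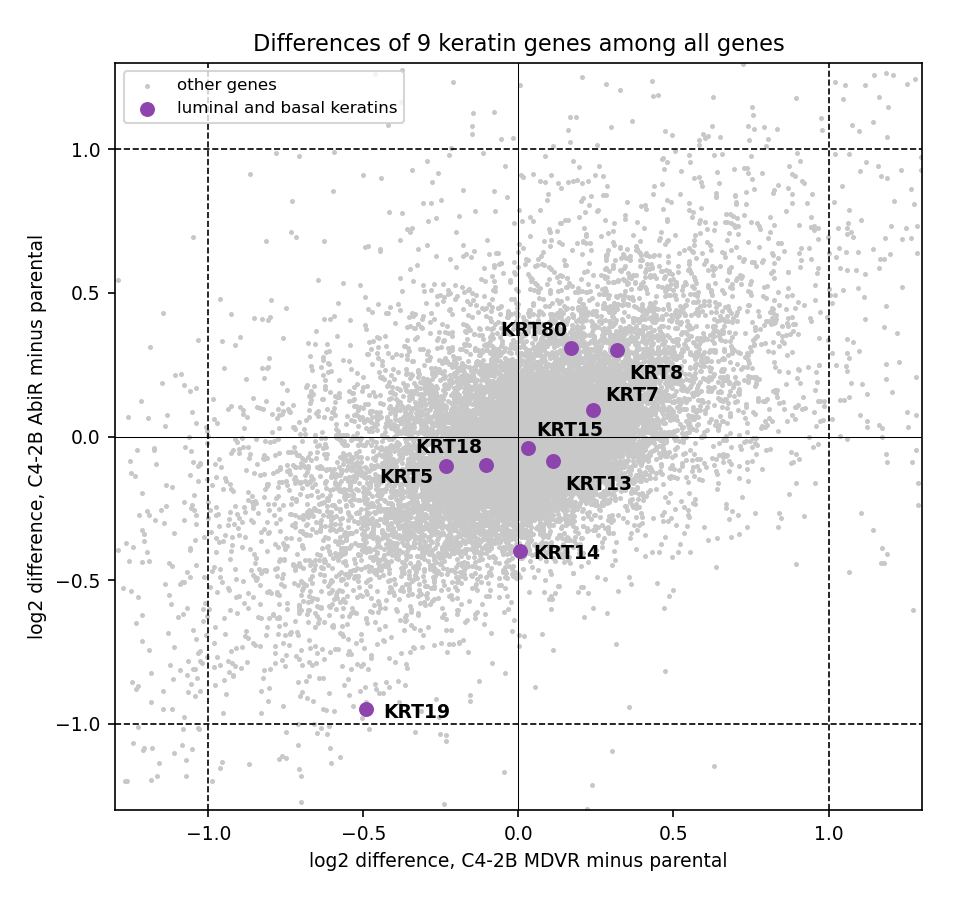
Log2 difference of C4-2B MDVR from parental (x axis) against that of C4-2B AbiR from parental (y axis), for the 9 keratins (purple, labelled) and all other genes within the plotted range (grey), with dashed lines at 2-fold. KRT19 stands at −0.49 and −0.95, apart from the other 8 keratins, which lie inside −0.40 to 0.32 on both axes.

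The other keratin genes of the array gave the setting for these values. Besides the 9 genes, 35 keratins were read by 43 probe sets, mostly 1 for each gene. Among them 0 were at least 2-fold higher or lower in any of the 3 comparisons. Of all genes, 1.65% were higher and 1.67% lower in MDVR, and 1.07% and 0.804% in AbiR. For MDVR minus AbiR the shares were 0.875% and 1.13%. With 35 genes and shares this low, a count of 0 says little. The medians of the 35 keratins were 0.030 in MDVR and −0.0087 in AbiR. Their values ranged from −0.41 (KRT10, a type I keratin of differentiated epidermis) to 0.40 (KRT16, a type I keratin of stressed epidermis) in MDVR. In AbiR they ranged from −0.34 for the hair keratin KRT35 to 0.35 for KRT20, a type I keratin of intestinal and urothelial cells. KRT19 was the lowest of all 44 keratins measured in both resistant lines and the highest for MDVR minus AbiR.

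Of the 19 other type I keratins, KRT20 was at 0.37 and 0.35 in MDVR and AbiR, and KRT222 at 0.33 ± 0.43 and 0.15 ± 0.26. KRT35 was at −0.24 and −0.34, and KRT10 at −0.41 ± 0.047 and −0.086 ± 0.062. The 16 other type II keratins had medians of −0.013 and −0.049. The epidermal keratins KRT1 and KRT2 were at 0.25 and 0.30 and at −0.28 and −0.20. The corneal keratin KRT3 was at 0.40 and −0.000093, and the hair keratin KRT84 at −0.19 and −0.18.

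Keratin genes lie in 2 clusters of the human genome, the type II genes with KRT18 on chromosome 12 and the type I genes on chromosome 17. Gene order was taken from the RefSeq annotation of GRCh38.p14. On chromosome 12, 21 keratins were measured, 5 of them among the 9, and on chromosome 17 there were 23 and 4. KRT19 was the lowest measured keratin of its cluster in both resistant lines. In AbiR the others ranged from −0.40 (KRT14) to 0.35 (KRT20), with KRT35 at −0.34 and KRT33A at −0.29. A keratin near background could not show a fall, and centred values do not tell which ones are. The neighbours of KRT19 among the measured genes, KRT15 on one side and KRT9 on the other, had MDVR differences of 0.032 and −0.069. Their AbiR differences were −0.040 and −0.10. One gene further out, KRT13 and KRT14 had MDVR differences of 0.11 and 0.0061 and AbiR differences of −0.086 and −0.40. KRT8 and KRT18, which are adjacent on chromosome 12, stood at 0.32 and −0.10 in MDVR.

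**Figure D3:**
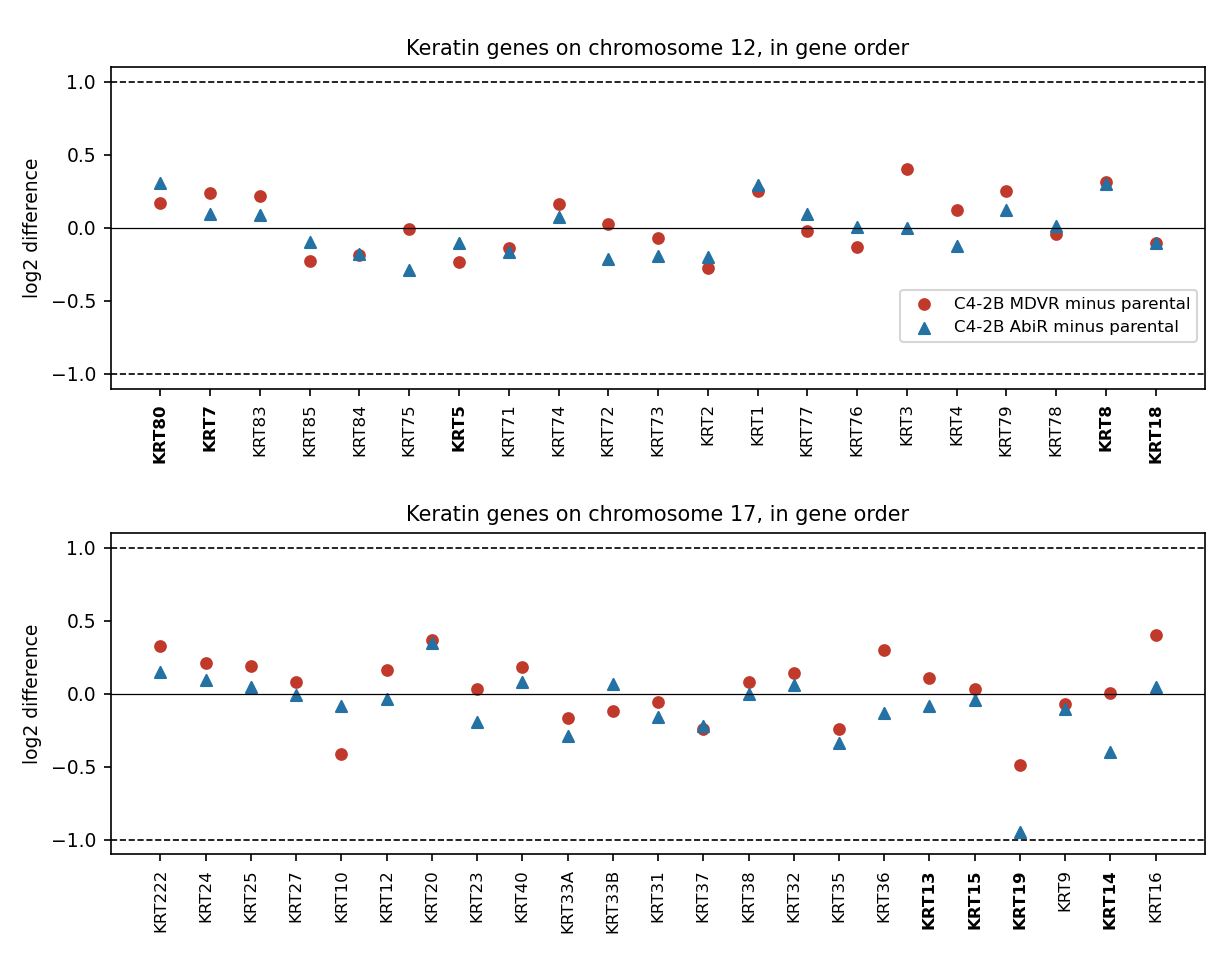
Log2 differences from the parental array (y axis) of the measured keratin genes, in gene order along chromosomes 12 and 17 (x axis, no scale of distance), for C4-2B MDVR (red circles) and C4-2B AbiR (blue triangles), with dashed lines at 2-fold and the 9 described keratins in bold. All genes lie inside the dashed lines, and KRT19 is the lowest for both lines at −0.49 and −0.95.

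The genes whose pair of differences was nearest to that of KRT19 were sought among 10523 genes with 2 or more probe sets, by Euclidean distance over the 2 differences from parental. They were BEND4 (−0.50 and −0.98, distance 0.032), CDC42EP3 (−0.51 and −0.88, distance 0.068) and MRPS18A (−0.45 and −0.89, distance 0.071). For KRT8 they were ATP6V1A, RBFOX2 and ZYG11B, at distances of 0.0048, 0.0089 and 0.011. With 3 arrays such a pattern holds only 2 numbers. Each distance was smaller than the SD of the bacterial controls against parental, 0.13 for MDVR and 0.10 for AbiR. Those for KRT19 were also smaller than the SD between its 2 probe sets, 0.19 in MDVR and 0.73 in AbiR. Which genes are nearest is therefore uncertain.

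Genes that anchor keratin filaments were read next, with 16 of 17 listed genes measured. The list median was 0.058 for MDVR and 0.089 for AbiR, beside 0.044 and −0.011 for all genes. The desmosomal cadherins DSG2 and DSC2, which join neighbouring cells, were the lowest by the mean of both differences from parental. In MDVR, DSG2 was 1.92-fold below parental (−0.94 ± 0.19, 2 probe sets), and in AbiR it was 3.12-fold below (−1.64 ± 0.096). DSC2 was at −0.44 ± 0.59 and −1.52 ± 1.56 over 4 probe sets, which spread widely in AbiR. Like KRT19, both had their lower value in AbiR. PLEC, which encodes the linker plectin, was at 0.38 ± 0.015 and 0.65 ± 0.32, and the plaque protein gene JUP at 0.36 and 0.34. At 2-fold, 1 gene of the list counted as lower for MDVR and 2 for AbiR (DSG2 and DSC2), and 0 counted as higher. The shares of all genes were 1.67% and 0.804% lower, and 1.65% and 1.07% higher. The gene counted in MDVR was EPPK1, a plakin read by 5 probe sets (−1.14 ± 1.25), named after its value was seen. Between the resistant lines, EPPK1 (−1.58 ± 1.52), DSP (−1.21) and PPL (−1.15), also named after their values were seen, were at least 2-fold lower in MDVR than in AbiR, and DSC2 was 2.11-fold higher (1.08 ± 0.998). Of all genes, 1.13% were at least 2-fold lower in MDVR than in AbiR, and 0.875% higher. DSP encodes desmoplakin, which links keratin filaments to desmosomes, and PPL encodes periplakin.

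Among 16 other intermediate filament genes, the medians were 0.046 and −0.041. VIM, the filament gene of mesenchymal cells, was at −0.42 ± 0.45 in MDVR and −0.77 ± 1.14 in AbiR, with a spread between its 2 probe sets as large as the difference. NES, which encodes nestin, was 2.53-fold higher in MDVR (1.34 ± 1.52, 2 probe sets) and at −0.18 ± 0.19 in AbiR, the single gene of this list past 2-fold against parental. Of all genes, 1.65% were at least 2-fold higher in MDVR. SYNM was at 0.34 and 0.48, and the nuclear lamin gene LMNB1 at −0.76 and −0.38.

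Other luminal and basal genes stood beside the keratins as follows. Of all genes, 1.67% in MDVR and 0.804% in AbiR were at least 2-fold lower. Of 16 luminal prostate genes outside the keratins, 5 passed 2-fold in the lower direction in each resistant line, with list medians of −0.46 and −0.50. They were KLK3 (−4.07 ± 3.23 and −3.17 ± 2.36), SLC45A3 (−2.91 ± 0.72 and −3.15 ± 0.35), DPP4 (−1.43 ± 0.36 and −3.32 ± 0.27), MSMB (4.78-fold and 4.01-fold lower, with SDs of 0.65 and 0.047 on the log2 scale) and KLK2 (−1.29 ± 1.19 and −2.12 ± 1.93), which encode secreted and surface proteins of luminal cells. The probe sets of KLK3 and KLK2 spread nearly as widely as their differences. CD24, a surface protein gene, was at 1.94 ± 0.45 and 0.51 ± 0.27. It was the 1 luminal gene at least 2-fold higher in MDVR, and 0 were in AbiR. The shares of all genes at least 2-fold higher were 1.65% in MDVR and 1.07% in AbiR. ACP3, the prostatic acid phosphatase gene, was at 0.64 ± 0.37 and 0.85 ± 0.69. The luminal keratins KRT8 and KRT18 thus had differences of at most 0.32 in absolute value, smaller than those of SLC45A3 and MSMB. Other luminal genes of the list also had small differences, and 3 are named here after their values were seen. HOXB13 was at 0.37 ± 0.44 and 0.17 ± 0.045, FOLH1 at 0.21 and −0.13, and TMPRSS2 at −0.18 ± 0.11 and −0.45 ± 0.12.

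Of 18 basal genes outside the keratins, the medians were 0.080 and −0.011. SERPINB5, which encodes maspin, was 2.30-fold higher in MDVR (1.20 ± 1.88) and 1.66-fold higher in AbiR (0.73 ± 0.98), and its 2 probe sets disagreed widely. The growth factor receptor gene FGFR3 was at −1.03 ± 1.40 and −0.78 ± 0.79. Each of the 2 was the single gene of the list past 2-fold in its direction in MDVR, and 0 passed in AbiR. The shares of all genes were 1.65% higher and 1.67% lower in MDVR, and 1.07% and 0.804% in AbiR. The basal integrin gene ITGA6 was at −0.89 ± 0.19 and −0.035 ± 0.12, and TRIM29 at 0.56 ± 0.44 and 0.18 ± 0.22.

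**Figure D4:**
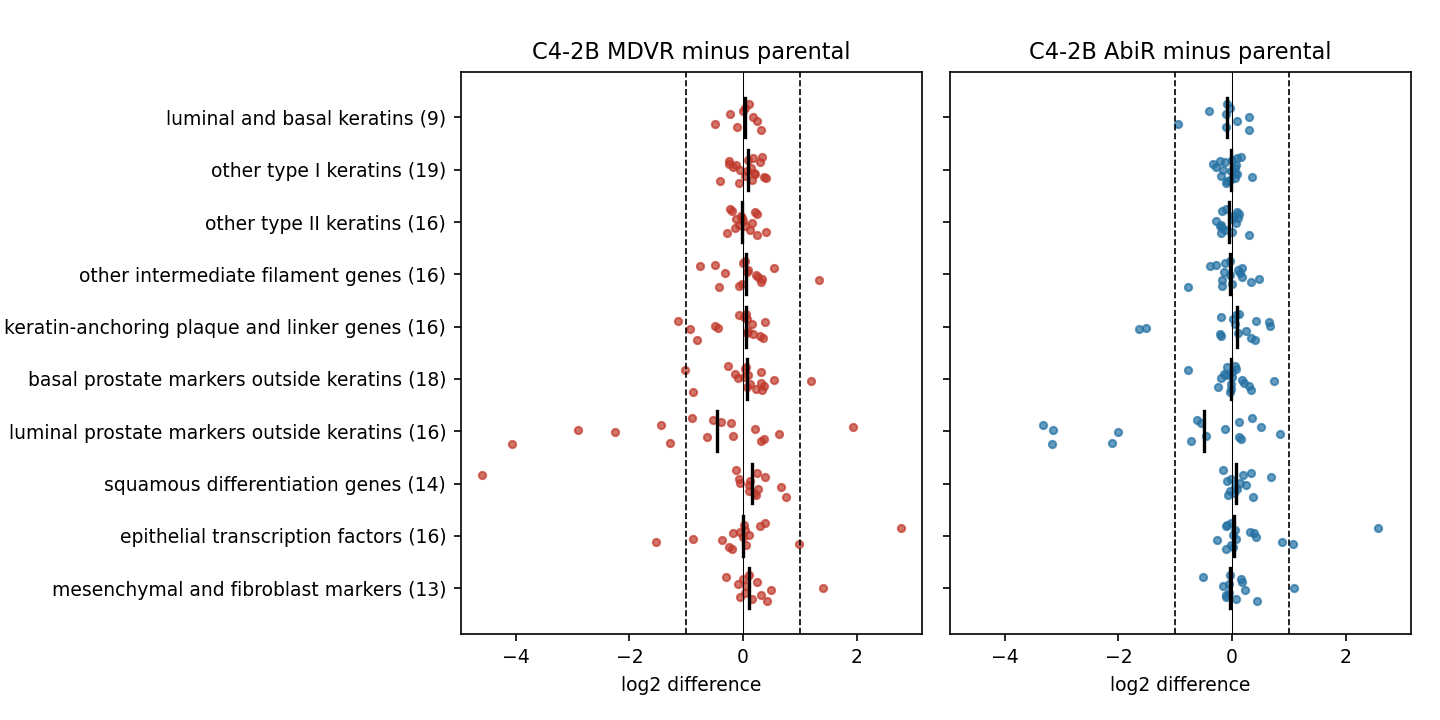
Each point is a gene, placed by its log2 difference from parental (x axis) and its list (y axis, gene number in brackets), with C4-2B MDVR in the left panel, C4-2B AbiR in the right panel, black bars at list medians and dashed lines at 2-fold. The 9 keratins lie inside the dashed lines in both panels, and luminal genes outside the keratins have the lowest medians, −0.46 and −0.50.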

How the data were processed

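Total RNA of the 3 C4-2B lines was hybridized to Affymetrix HG-U133 Plus 2.0 arrays, 1 per line. The authors deposited log2 values made by RMA per the labels, with no version given in the sources used here. The deposited values were also centred per probe set: within a tolerance of 2e-06, 100% of the 54675 probe sets are compatible with subtracting the median over 4 arrays, of which 3 were analysed here. Median centred values were 0.00, 0.027 and −0.0053 for parental, MDVR and AbiR. Gene names came from the platform annotation and were updated by gene ID through RefSeq GRCh38.p14: 41097 had 1 symbol, 1801 several and 11777 none.

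Differences were computed with pandas 2.3.3 in Python 3.11.15. A gene was the mean of the probe sets annotated to it alone, and was counted at 2-fold, with no filter and no test. The steps were tested on simulated data. All 9 keratins were named, with the 2 highest and 2 lowest genes of each related list by the mean of both differences from parental, list genes past 2-fold in both lines, and the 3 genes nearest to KRT19 and KRT8. The members and lists were chosen with earlier results of these data known. The number of arrays limits the precision. Listed genes with no probe set annotated to them alone were not analysed here.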

Additional observations from a re-analysis of the deposited data

Results flagged for a closer look

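For 3 keratins the difference from parental had opposite signs in the resistant lines. With 1 array per line the sign alone meets this, and the difference between the lines was not tested. The share of all genes with opposite signs is not given here, so that the count of 3 cannot be judged against it. KRT14 was 0.40 higher in MDVR than in AbiR on the log2 scale, from values of 0.0061 and −0.40 against parental, KRT13 was 0.20 higher (0.11 and −0.086), and KRT15 was 0.072 higher (0.032 and −0.040). The value of KRT14 exceeded the largest bacterial control difference for MDVR minus AbiR, 0.34, and the values of KRT13 and KRT15 did not. The opposite signs did not hold for KRT14 when arrays were centred on their median, on all bacterial controls or on the hybridization controls, where its MDVR difference was −0.021, −0.032 and −0.060, nor for KRT15 under the last 2 of these (−0.0060 and −0.034). Those of KRT13 held under the 3 centrings. Each gene was read by 1 probe set.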

How the results depend on the processing

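The count of keratins at least 2-fold apart in AbiR was 0, and 1 with a threshold of 1.5-fold, with the probe sets counted singly, or with arrays centred on the 18 hybridization controls, in each case KRT19. The last 2 alternatives were chosen after seeing the data. The hybridization controls shifted AbiR minus parental by −0.091. The counts for MDVR minus parental and MDVR minus AbiR were 0 under every alternative run. The median over the keratins moved by less than the SD of the bacterial controls under the alternatives run, but in MDVR its sign changed, from 0.032 to −0.0060 with arrays centred on all bacterial controls and to −0.034 on the hybridization controls. Over 6 alternatives, 7 of 153 member values changed sign and 0 moved by more than that SD. The sign changes were in KRT14 under the 3 array centrings and KRT15 under 2 of them in MDVR, and KRT8 and KRT18 under 1 each for MDVR minus AbiR. An array centring shifts all genes of a comparison alike, and each shift was smaller than that SD. The 3 centrings therefore could not move a value past it. Of the 9 keratins, the other alternatives could change only the value of KRT7. That 0 moved thus says little about how firm the values are. When probe sets with IDs ending in _s_at, _x_at or _a_at were left out, 6 of the 9 keratins had a value, and KRT8, KRT18 and KRT13 had none. The filter on low signal was not run because centred values carry no level. Leaving out a replicate was not possible, and the drift between separate cultures of 1 line cannot be estimated.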

Other observations

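Epithelial transcription factors, which set keratin programmes in many tissues, had medians of 0.0068 in MDVR and 0.041 in AbiR over 16 genes. SOX9, a factor of progenitor cells, was 6.90-fold higher in MDVR (2.79 ± 0.016, 2 probe sets) and 5.92-fold higher in AbiR (2.57 ± 0.26). ELF3, a factor of simple epithelia, was at 0.98 ± 0.65 and 1.07 ± 0.30 over 3 probe sets. ELF5 was at −1.53 ± 0.84 in MDVR and 0.87 ± 0.23 in AbiR, and KLF5 at −0.87 ± 0.53 and 0.067 ± 0.10. Their relation to the keratin values was not tested.

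Of 14 squamous differentiation genes, CSTA, which encodes the protease inhibitor cystatin A, was 24.2-fold lower in MDVR by its single probe set and at 0.19 in AbiR. The cornified envelope gene IVL was at 0.76 and 0.37, CNFN at 0.39 and 0.68 and RHCG at −0.12 and −0.16, and the medians were 0.16 and 0.069. Of 13 mesenchymal and fibroblast markers, FN1, which encodes fibronectin, was 2.65-fold higher in MDVR (1.40 ± 0.82) and 2.13-fold higher in AbiR (1.09 ± 0.74). COL1A1 was at 0.42 ± 0.67 and 0.44 ± 0.64, with a spread larger than its differences. COL3A1 was at −0.047 ± 0.15 and −0.11 ± 0.15 and SPARC at −0.30 ± 0.38 and −0.50 ± 0.40. The list medians were 0.10 and −0.035.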
